A study of Bos taurus with 5 samples.

Results

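TIMP1 and LOXL4 are 2 genes of extracellular matrix remodelling, and both were measured in the wall of bovine largest (F1) and second-largest (F2) follicles. They were represented by 4 of the 10163 probes on the array other than the GAPDH spots, 3 for TIMP1 and 1 for LOXL4, and the probes were found by their accessions. Both genes had been picked from the signals of these same arrays, with their difference between F1 and F2, the agreement of the TIMP1 probes and the spread among the F2 in view, so these values are given as a description without a test. The signals of 3 F1 and 2 F2 were compared, with 1 follicle per array. All follicles came from a group of 4 pregnant Japanese Black cows with no treatment named. Total RNA was taken from the wall (granulosa cells and theca interna together), which had been freed of theca externa and stroma. Ages of the cows and the phase of the follicular wave were not given. An F1 and an F2 could come from the same animal, and the labels do not tell which did, so the follicles are not all independent. RNA of the whole wall cannot tell a change in the number of cells of a type from a change of RNA per cell.

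Tissue inhibitor of metalloproteinases 1, the product of TIMP1, is a small secreted protein that binds the active site of matrix metalloproteinases (MMPs) and blocks their cleavage of collagens and other matrix proteins. It also binds cell-surface proteins, CD63 among them. Lysyl oxidase-like 4, the product of LOXL4, is a secreted copper-dependent amine oxidase of the lysyl oxidase family, whose members oxidize lysine residues of collagen and elastin so that the fibres can be crosslinked. In the ovary the matrix of the follicular wall is continuously degraded and rebuilt as follicles grow, ovulate or regress.

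The sequences of the TIMP1 probes show which of them overlap. All probes were 60 bases long. The NM_174471 probe starts at base 511 of that bovine accession and the AB098760 probe at base 421 of its own, and they share an unbroken run of 43 bases, printed in capitals (5′ to 3′):
NM_174471: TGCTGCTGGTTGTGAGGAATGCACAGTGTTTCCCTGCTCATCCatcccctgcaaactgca
AB098760: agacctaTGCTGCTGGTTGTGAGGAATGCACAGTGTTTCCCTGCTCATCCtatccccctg
These probes therefore read nearly the same stretch of the transcript. The run ends 17 bases before the end of the first probe and 10 bases before the end of the second. The NM_003254 probe carries the accession of the human TIMP1 transcript, starts at its base 706 and shares no run of 16 bases with another probe of the array on either strand, as holds for the LOXL4 probe, which starts at base 3547 of NM_174384. Of these probes 30 bases are shown, bases 31 to 60 of the former and 17 to 46 of the latter, with the polyadenylation hexamer AATAAA in capitals where it occurs:
NM_003254: actcccatctttcttccggacaatgaaata
NM_174384: cgctctcatgccAATAAAggttgctcacta
The hexamer, searched on the printed strand of each probe, was present in the LOXL4 probe, as in 8.88% of the 10163 probes, and was not found in the NM_003254 probe. No transcript sequence was at hand to test how well this human accession's probe matches the bovine transcript. The arrays name no genome build, so no genome position is given.

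Signals are given relative to the median of the 100 GAPDH spots of the same array. That median ranged from 868.7 to 1411.2 intensity units, and the coefficient of variation over the GAPDH spots from 6.54% to 15.8%. The number of probes well above background ranged from 5465 to 5855. On each of the 5 arrays the 4 probes of TIMP1 and LOXL4 were also well above background, and none was saturated. All 4 passed the filter on weak probes.

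Each TIMP1 probe gave far higher signals with the F2 than with any F1. For F1 replicates 1, 2 and 3 the NM_174471 probe had signals of 0.533, 0.675 and 0.542, whereas for F2 replicates 1 and 2 it had 14.3 and 7.52. The means were 0.584 ± 0.0796 (SD, n = 3) and 10.9 ± 4.82 (SD, n = 2), and the fold of F2 over F1 on the log2 scale was 17.9. The groups did not overlap, since the lower F2 was 11.1 times the highest F1.

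With the NM_003254 probe the F1 had 0.675, 0.815 and 0.641 and the F2 had 20.2 and 10.4, which is 20.5-fold on average. With the AB098760 probe the F1 had 0.452, 0.617 and 0.476 and the F2 had 12.9 and 7.21, which is 18.9-fold. Both showed the same order as the NM_174471 probe: F2 replicate 1 was the highest follicle, F2 replicate 2 the next, and F1 replicate 2 the highest of the F1. F1 replicates 1 and 3 changed places between probes and differed by less than the spot errors, which the scanner software put between 10.1% and 10.5% of the TIMP1 signal in the F1.

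LOXL4 was near the detection limit in the F1 and clearly above it in the F2. F1 replicates 1, 2 and 3 had signals of 0.0435, 0.0474 and 0.0450, whereas F2 replicate 1 had 5.32 and F2 replicate 2 had 0.428. The F1 values were all low and close together, the F2 values were both higher and far apart, and the groups did not overlap. The F1 mean was 0.0453 ± 0.00197 (SD, n = 3) and the F2 mean was 2.88 ± 3.46 (SD, n = 2), so that among the F2 the SD exceeded the mean. The fold of F2 over F1 on the log2 scale was 33.3, a log2 difference of 5.06 that became 4.03 with normexp background correction. It averages 2 unlike follicles: F2 replicate 1 was 118-fold and F2 replicate 2 was 9.45-fold above the F1 mean.

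The 3 TIMP1 probes agreed closely in how the follicles differed. The log2 difference F2 minus F1 was 4.16, 4.36 and 4.24 for the NM_174471, NM_003254 and AB098760 probes, a range of 0.20, which is smaller than the SD of the log2 values between the 2 F2 (0.59 to 0.68). The signal of NM_003254 was between 1.18 and 1.41 times that of NM_174471 over the 5 arrays, and that of AB098760 between 0.847 and 0.958 times. These ratios of probes therefore varied by 1.19-fold and 1.13-fold, against the 26.9-fold span of the NM_174471 signals themselves. The ratio of NM_003254 to NM_174471 was 1.41 and 1.38 for the F2 but 1.18 to 1.26 for the F1, without overlap, and this small shift was not tested. The profiles of NM_174471 and AB098760, centred on their means over the 5 arrays, differed by a root mean square of 0.06 on the log2 scale, and those of NM_174471 and NM_003254 by 0.10. The overlapping pair is not independent evidence. NM_003254 shares no such run with them, but it read the same labelled RNA on the same arrays, and its match to the bovine transcript was not tested. The agreement was in view when the genes were picked, so it is a description and not evidence.

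**Figure D1:**
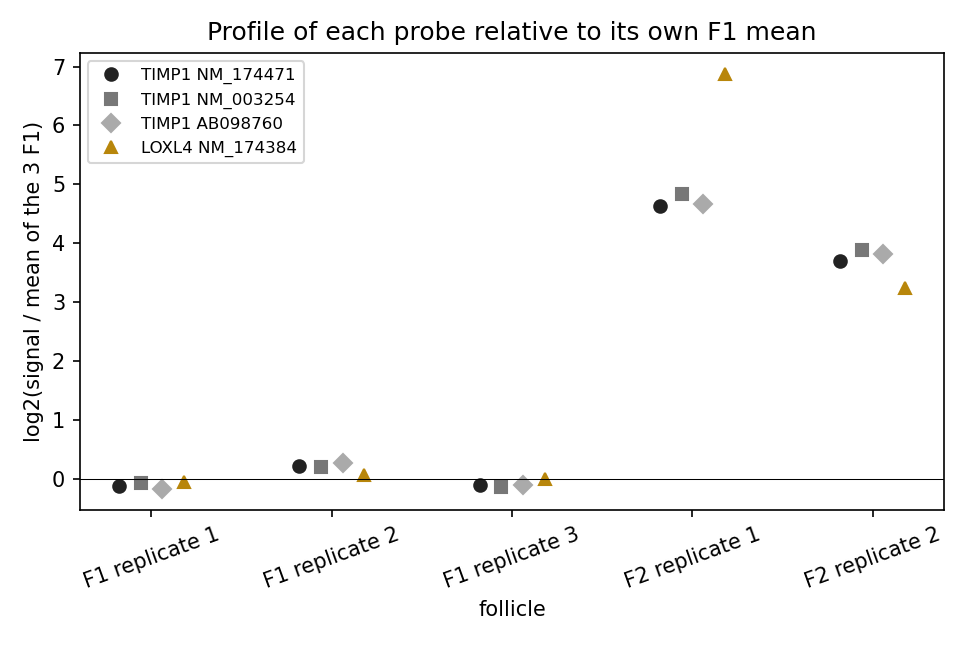
Each probe's log2 signal in each of the 5 follicles (x axis) minus the mean log2 signal of its own 3 F1 (y axis, log2 units), with 1 symbol per probe. The 3 TIMP1 symbols stay together in every follicle, at 4.63 to 4.84 in F2 replicate 1 and 3.70 to 3.88 in F2 replicate 2, whereas LOXL4 lies at 6.88 and 3.24.

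The F2 differed from each other much more in LOXL4 than in TIMP1. F2 replicate 1 exceeded F2 replicate 2 by 12.4-fold for LOXL4 and by 1.91-fold, 1.95-fold and 1.79-fold for the NM_174471, NM_003254 and AB098760 probes of TIMP1. Over the 4861 probes that were well above background on each of the 5 arrays, the median size of this ratio was 1.31-fold. Only 4 of the 4861 probes had a larger size of ratio than LOXL4, and all 4 were higher in F2 replicate 2, so that none was higher in F2 replicate 1 by more than LOXL4. A ratio of larger size than that of TIMP1 was seen in 10.9% to 14.9% of these probes, depending on the TIMP1 probe. Over all 5528 tested probes, some of them not well above background on every array, 27 had a larger size of ratio than LOXL4. Among these, 5 were higher in F2 replicate 1 by more than LOXL4. For TIMP1 a larger size was seen in 14.2% to 18.4% of the 5528.

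On the GAPDH scale the median log2 ratio of F2 replicate 1 to F2 replicate 2 over the 4861 probes was -0.35. Relative to that median, F2 replicate 1 was 15.8-fold above F2 replicate 2 for LOXL4, and 2.43-fold, 2.48-fold and 2.28-fold for TIMP1. The scanner software put the error of the LOXL4 spot at 10.0% and 10.4% of its signal in the F2. In both F2 the LOXL4 spot was far from the detection limit, at 367 and 25.7 times the lowest signal well above background.

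The 3 F1 were alike in both genes. The highest F1 was 1.09 times the lowest for LOXL4 and 1.27, 1.27 and 1.37 times for the NM_174471, NM_003254 and AB098760 probes of TIMP1, while the median over the 4861 probes was 1.56. For LOXL4 this closeness is smaller than the error of its spots, which was 30.9%, 30.8% and 18.9% of the signal in F1 replicates 1, 2 and 3. There the LOXL4 signals were between 2.28 and 3.64 times the lowest signal well above background. The order of the F1 in LOXL4 is therefore not resolved.

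**Figure D2:**
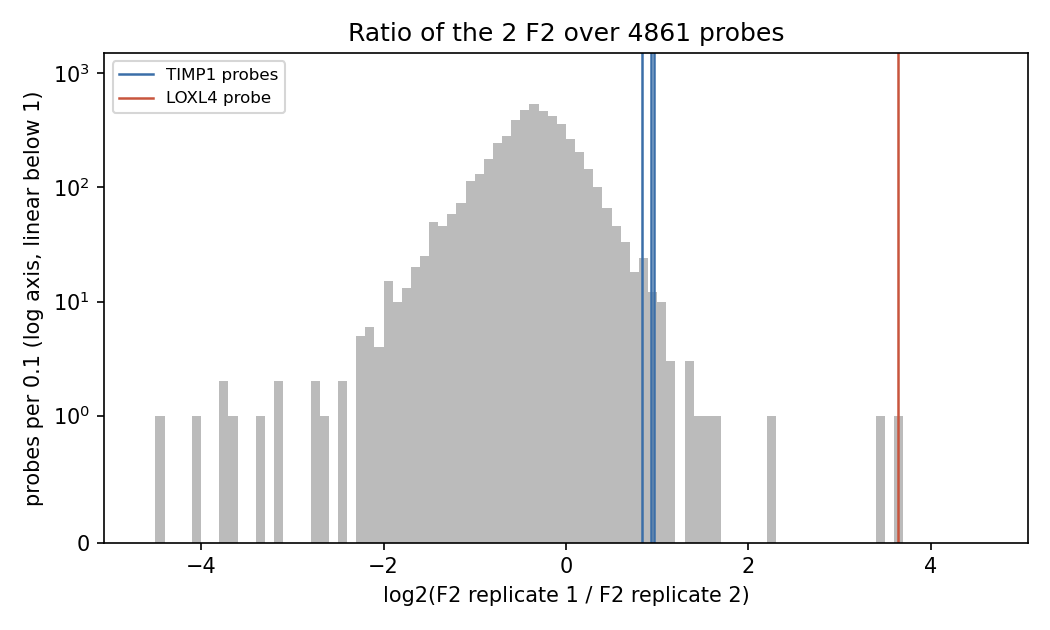
Distribution of the log2 ratio of F2 replicate 1 to F2 replicate 2 over the 4861 probes detected above background on each of the 5 arrays (bars, probes per bin of 0.1, log axis that is linear below 1), with vertical lines at the TIMP1 probes (blue) and the LOXL4 probe (red). The LOXL4 line, at 3.64, is the rightmost value of the distribution, and the TIMP1 lines lie at 0.84 to 0.96.

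Among the other genes of matrix remodelling matched to a probe, none passed the test as higher in the F2. Lists of 93 genes of matrix remodelling had 25 matched probes on the array, of which 21 passed the filter. Not matched were ADAMTS1, which the paper lists in its F2 cluster, and TLL2, for which it lists a similar transcript in its F1 cluster. In limma, with p-values adjusted by the Benjamini-Hochberg method over all 5528 tested probes, 0 of the 21 were higher in the F2 and 1 was higher in the F1. Over all tested probes 11.5% passed in either direction, made up of 5.08% on the F2 side and 6.39% on the F1 side. With the 75th percentile of each array in place of GAPDH, 2 of the 21 passed on the F2 side and 0 on the F1 side, where 7.996% and 7.62% of all tested probes did. At an unadjusted p under 0.05 the GAPDH scale gave 4 and 2 of the 21, against 10.5% and 18.7% of all tested probes. The median log2 difference F2 minus F1 was 0.44 over the 21 and -0.27 over all tested probes. The 4 probes of TIMP1 and LOXL4 all passed the same threshold, which follows from their choice.

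Among the other MMP inhibitors, TIMP2 and TIMP3 pointed in opposite directions and neither passed the test. TIMP2, which also takes part in activating MMP2, had F1 signals of 53.9, 41.6 and 43.6 and F2 signals of 28.2 and 18.7 (log2 difference -1.01, standard error 0.31, limma adjusted p = 0.0909). TIMP3, which is bound to the matrix, had F1 signals of 0.0659, 0.143 and 0.0737 and F2 signals of 0.188 and 0.180 (log2 difference 1.05, standard error 0.40, limma adjusted p = 0.143). The F1 and F2 did not overlap in either gene. The share of all tested probes without overlap was not computed, so here and for the genes below this is a description alone. TIMP2 passed in the F1 direction when limma was given an intensity trend (adjusted p = 0.0436).

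Of 5 metalloproteinases matched to probes on the array, MMP2 and MMP14 were tested and neither passed. MMP2, a gelatinase, had F1 signals of 0.303, 0.364 and 0.279 and F2 signals of 0.547 and 0.376 (log2 difference 0.53, standard error 0.31, limma adjusted p = 0.288). The MMP2 signals did not overlap either. MMP14, a membrane-bound MMP, had F1 signals of 0.0294, 0.0403 and 0.0271 and overlapping F2 signals of 0.0267 and 0.0438 (log2 difference 0.11, standard error 0.35, limma adjusted p = 0.856). The MMP14 signals lay near the detection limit, since the lowest signal well above background was 0.0124 to 0.0208 over the arrays. MMP13 and MMP20 were not well above background on any array, and MMP1 was so in F1 replicate 1 alone. MMP9, TIMP4 and RECK were not analysed here. Of the adamalysins matched here, ADAMTS1 not being among them, ADAM10, ADAM12 and ADAMTS4 were tested. None passed, and F1 and F2 overlapped in each.

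The lysyl oxidases measured beside LOXL4 did not pass either. LOX, the founding member, had F1 signals of 0.678, 0.838 and 0.802 and F2 signals of 0.438 and 0.918, so that the F2 lay on both sides of the F1 (log2 difference -0.28, standard error 0.38, limma adjusted p = 0.657). LOXL1, which acts on elastin, had F1 signals of 0.103, 0.130 and 0.0945 and F2 signals of 0.156 and 0.182, without overlap (log2 difference 0.64, standard error 0.29, limma adjusted p = 0.197). With the 75th percentile in place of GAPDH, LOXL1 passed as higher in the F2 (log2 difference 0.85, adjusted p = 0.0452). F2 replicate 1 was 0.477 times F2 replicate 2 for LOX and 0.857 times for LOXL1, the opposite order to LOXL4. LOXL2 and LOXL3 were not analysed here.

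PLOD1, a lysyl hydroxylase that modifies collagen lysines inside the cell before lysyl oxidases act outside it, was the single list gene that passed. It was lower in the F2, with F1 signals of 11.6, 9.84 and 10.7 and F2 signals of 4.98 and 4.75 (log2 difference -1.13, standard error 0.26, limma adjusted p = 0.0416). It did not pass with the 75th percentile (adjusted p = 0.0645), nor without any 1 of the 5 follicles. Among substrates and elastic fibre genes, 0 of 6 passed. The microfibril genes FBN1 and MFAP2 came closest, with log2 differences of 1.53 and 1.03 (limma adjusted p = 0.0788 and 0.065), and collagen COL1A2 and elastin (ELN) had -0.16 and 0.14. Of the 3 cell-surface partners tested, CD63 had a log2 difference of 0.67 (limma adjusted p = 0.197), and CD44 of 1.44 (limma adjusted p = 0.0824). ITGB1 went the other way, with -0.27 (limma adjusted p = 0.66).

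**Figure D3:**
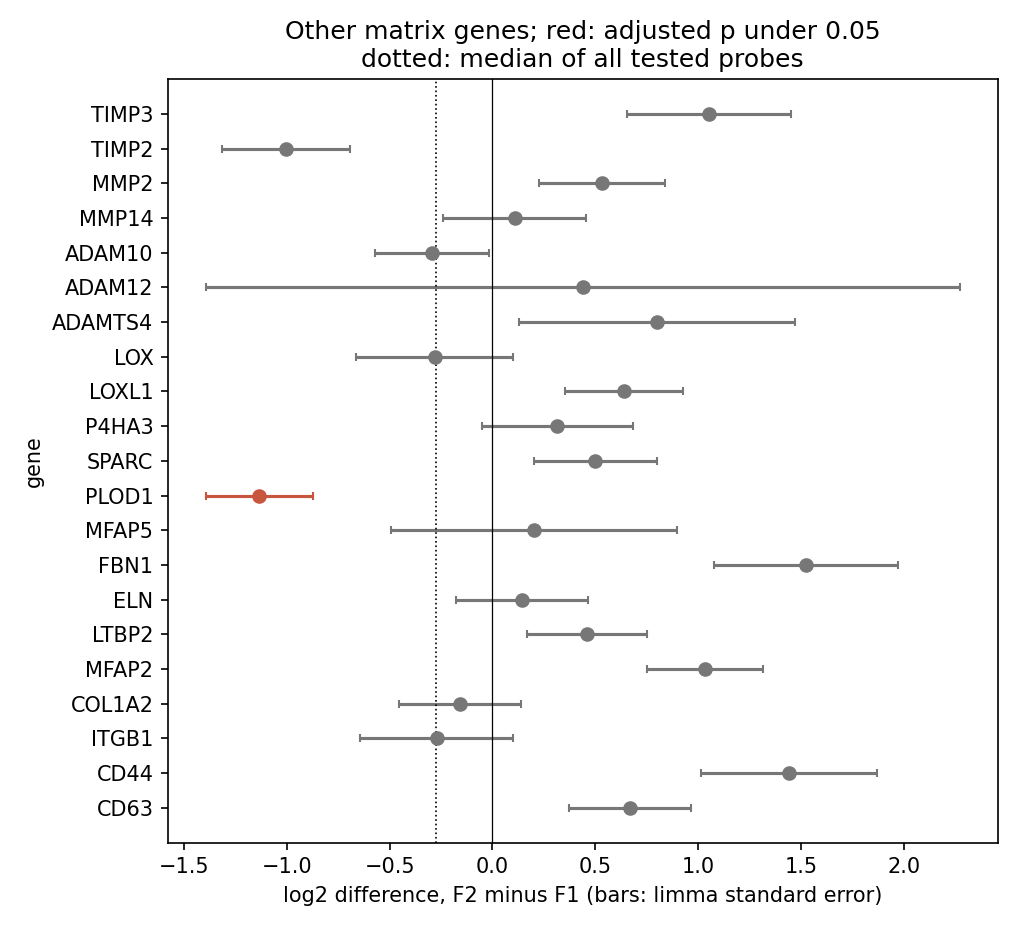
Log2 difference F2 minus F1 (x axis) of the 21 tested matrix genes other than TIMP1 and LOXL4, with limma standard errors as bars and the median of all tested probes as a dotted line at -0.27. PLOD1, in red, is the only gene with adjusted p under 0.05, and every difference lies between -1.13 and 1.53.

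The named genes whose profiles over the 5 follicles were closest to TIMP1 were CRYAB, GNG2 and PTGES. Likeness was the root mean square difference between log2 profiles centred on their means, over 737 probes with a gene name among the 4861. CRYAB, a small heat shock protein, differed from the NM_174471 probe by 0.41, GNG2, a G protein gamma subunit, by 0.42, and PTGES, a prostaglandin E synthase, by 0.52. Of all 4861 probes, the closest outside TIMP1 was BP112765, at 0.19, which was not paired with a gene name and was singled out after its values were seen. Its F1 signals were 0.251, 0.272 and 0.198 and its F2 signals 7.07 and 2.70. The F1 signals of CRYAB were 0.0541, 0.0431 and 0.0383 and its F2 signals 1.23 and 1.07, so that its F2 were 1.15-fold apart.

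LOXL4 was followed less closely. CRYAB and GNG2, among the 3 named genes nearest to it, lay at 1.12 and 1.19, while the TIMP1 probes lay at 0.92 to 0.98 and the nearest of all probes, again BP112765, at 0.84. The F1 signals of GNG2 were 0.226, 0.322 and 0.341 and its F2 signals 4.29 and 2.16. Its F2 replicates were 1.98-fold apart, against 12.4-fold for LOXL4.

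Markers of several cell types also differed between F1 and F2, and their part in the values of TIMP1 and LOXL4 was not tested. Of the 23 markers tested, 4 passed as higher in the F2 and 9 as higher in the F1, against 5.08% and 6.39% of all tested probes. Each sum below adds the signals of all probes of a list on the array, with signals below 0 set to 0. All 6 granulosa markers tested were lower in the F2, and their sums were 173 to 237 among the F1 against 6.84 to 6.86 among the F2. FST, INHA and INHBA, which make up most of the F1 sums, were saturated on 2 or 3 arrays. FSHR was well above background in the F1 alone, and CYP19A1 in the F1 and F2 replicate 2 alone. Both therefore passed the filter through the group where they were higher.

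Of 6 theca markers, CYP17A1, INSL3 and LHCGR were lower in the F2, with F1 sums of 69.3 to 105 and F2 sums of 33.3 and 30.1 in replicates 1 and 2. INSL3 was saturated on 2 arrays. LHCGR was well above background in the F1 alone, so it passed the filter through the group where it was higher. STAR, the carrier of cholesterol into mitochondria, did not overlap and did not pass, with F1 signals of 5.56, 3.14 and 5.33 and F2 signals of 16.1 and 9.91 (log2 difference 1.48, standard error 0.39, limma adjusted p = 0.0593). It passed as higher in the F2 with normexp, with the floor of 0.01, in the deposited values and with the replicate block. It also passed with the filter on all 5 arrays and with an intensity trend. With the 75th percentile, with quantiles, with no filter and whichever F1 was left out, STAR did not pass.

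Of 5 leukocyte markers, CD14, CD3E and TYROBP were higher in the F2. CD3E was well above background in the F2 alone, so it passed the filter through the group where it was higher and its F1 values lay at or near the floor. FCER1G, the Fc receptor gamma chain, had F1 signals of 0.0281, 0.0342 and 0.0248 and F2 signals of 0.0196 and 0.0237 (log2 difference -0.42, standard error 0.29, limma adjusted p = 0.373). These FCER1G signals lay near the detection limit, since the lowest signal well above background was 0.0124 to 0.0208 over the arrays. The F1 sums of 0.911 to 1.02 and the F2 sums of 1.48 and 1.80 were mostly ITGB2, an integrin chain that did not pass (limma adjusted p = 0.217). Of 3 stroma markers tested, LUM was higher in the F2. The stroma sums, 9.03 to 14.5 among the F1 and 13.1 and 21.8 among the F2, overlapped and were mostly VIM and DCN. Neither VIM nor DCN passed (log2 difference 0.03 and 0.79, limma adjusted p = 0.956 and 0.278). None of 3 endothelial markers tested passed, with F1 sums of 0.113 to 0.166 and F2 sums of 0.127 and 0.249. The defining markers CDH5, SELE, OGN and the erythrocyte gene HBB were not well above background on any array.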

How the data were processed

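Cy3-labelled RNA from 3 F1 and 2 F2 was hybridized to 5 one-color arrays. The authors extracted spot intensities with Feature Extraction (version 9.5.3.1 per the file headers), which subtracted the background. The authors also deposited a table of ratios, the processed signal over the GAPDH median. The deposited flags (well above background, saturated, outlier) were used as other values.

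Processed signals were taken relative to the array's GAPDH median, raised to a floor of 0.001, and transformed to log2. Of 10163 probes, 5528 passed the filter (well above background in all follicles of the F1, of the F2 or of both) and were tested with limma 3.58.1 in R 4.3.3 (Benjamini-Hochberg, threshold 0.05). The fit was checked on simulated data. Tables were made with pandas 2.3.3 in Python 3.11.15. Of 1415 RefSeq accessions, 1364 were matched to a symbol (RefSeq table, ARS-UCD2.0, names alone); LOXL4 and the NM_174471 probe of TIMP1 were among them, and the other TIMP1 names come from the rule that chose the probes. No protein or transcript sequences were used. Genes, lists and tests were chosen with earlier results of these data known. Named genes were TIMP1, LOXL4, list genes that passed, a fixed set of TIMPs, MMPs and lysyl oxidases, and the 3 nearest named genes of each (1 of these is not reported here); other list genes were named after their values were seen. The number of arrays limits the precision, and p-values treat the follicles as independent. Alternatives were other normalizations, backgrounds, floors and filters, the deposited values, an intensity trend, a replicate block and leaving out each follicle.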

Additional observations from a re-analysis of the deposited data

How the results depend on the processing

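The direction of TIMP1 and LOXL4 held under every alternative run, and the log2 ratio of the F2 was at least 3.64 for LOXL4 and at most 1.32 for TIMP1 under each other normalization, background and floor. Their log2 difference F2 minus F1 moved by less than 1 SD under each other normalization, background correction and floor and in the deposited values, an SD that the unlike F2 make wide for LOXL4, which had 4.03 with normexp against 5.06. Leaving out a follicle gave 3.70 to 4.63 for NM_174471, 3.88 to 4.84 for NM_003254, 3.82 to 4.66 for AB098760 and 3.24 to 6.88 for LOXL4, where the lowest values came without F2 replicate 1 and the highest without F2 replicate 2.

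Of the matrix lists, the 0 calls higher in the F2 became 4 with normexp, 3 with the filter that requires all 5 arrays, 2 each with the 75th percentile, with quantiles and with an intensity trend, and 1 each with a floor of 0.01 and in the deposited values, from LOXL1, MFAP2, FBN1, CD44 and CD63, and ranged from 0 to 1 with a follicle left out (1, FBN1, without F1 replicate 2). The share of all tested probes higher in the F2 moved too, from 5.08% to 10.9% with normexp, 7.996% with the 75th percentile, 8.27% with quantiles, 6.66% with the trend, 7.13% with the floor of 0.01, 5.55% with the filter and 5.005% in the deposited values. The 1 call higher in the F1 became 2 with the trend (9.39% of all tested probes) and 0 with quantiles (7.91%) and with the 75th percentile (7.62%). It became 0 whichever F1 was left out (2.87% to 5.01%). Of the marker lists, the 4 calls higher in the F2 became 0 with no filter (1.11% of all tested probes). They became 3 whichever F1 was left out (3.26% to 5.51%). The 9 calls higher in the F1, of 23 markers tested, became 5 of 18 in the deposited values (7.04%). They stayed 9 whichever F1 was left out (2.87% to 5.01%). Leaving out an F2 leaves 1 F2, so its marker calls are not given. The log2 difference of MMP14 ranged from -0.25 (without F2 replicate 2) to 0.47 and was -0.0064 without F1 replicate 3, and that of LOX from -0.81 to 0.25 (without F2 replicate 1). The cause of these changes was not tested, but leaving out a follicle leaves fewer samples and the deposited values left fewer markers.

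With the replicate block, which leaves F1 replicate 3 without weight, the TIMP1 differences were 4.11, 4.29 and 4.19 and that of LOXL4 was 5.05, MMP14 was -0.0064, and the 1 matrix call higher in the F1 became 0. Nothing shows that equal numbers mark a shared cow (correlation of deviations 0.04 and 0.13).

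Of the 3 named genes nearest to TIMP1, 0 to 2 stayed with a follicle left out (0 without F2 replicate 1), and of those nearest to LOXL4, 1 to 3 (1 without F2 replicate 1). Signals near the detection limit, as LOXL4 in the F1, carry the largest spot errors.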
